A study of Mus musculus with 4 samples.

Results

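Foxa1, Foxa2, Foxe1, Sox2 and Pax1 are 5 transcription factor genes known from the pharynx and the lining of the mouth. They were followed here across 4 tissues of the developing mouse jaw and tongue, as 5 of the 26781 genes with a symbol on the arrays. The members were every non-control probe that the scanner files name after one of these genes, 7 probes in all. The genes were selected on earlier results of these arrays, that is, chosen by their processed signals in the same 4 tissues, so all their levels and differences below are a description and carry no test. The tissues came from embryos of ICR mice, an outbred stock, with no mutation or treatment in any group. MMA is a pool of 12 median mandibular arches taken at E9.5. LLS and LMA are pools from 4 embryos each at E11.5, LLS of lateral lingual swellings and LMA of the lateral part of the mandibular arch. T is a pool of 4 median tongues at E14.5. The labels conflict for LLS, whose name is lateral while its region is given as medial, as for MMA and T, and only LMA is labelled lateral. The tissue name is used here, and in LLS minus LMA a difference of tissue and one of medial against lateral position cannot be told apart. Each pool was measured on 1 single-colour Agilent array, and no tissue had a replicate.

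The first pharyngeal arch forms the lower jaw, and the lingual swellings on its floor form much of the front of the tongue. Its surface is covered by ectoderm towards the mouth opening and by endoderm towards the pharynx. Foxa1 and Foxa2 are forkhead factors that can bind their sites in closed chromatin, and they are best known from the endoderm and the epithelia it forms, such as those of lung and liver. Foxe1 is a forkhead factor of the thyroid primordium and of pharyngeal and palatal epithelium. Sox2 is an HMG-box factor that keeps progenitors of the foregut, the oral epithelium and the taste buds. Pax1 is a paired-box factor of the pharyngeal pouches and of the sclerotome, the part of the somite that forms the vertebrae.

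The 250 bases before the start of Foxa1, Foxa2 and Sox2 are shown because these 3 genes shared the order of tissues described below, with T highest and LMA lowest. Sequences are those of RefSeq on GRCm38.p6, read 5′ to 3′ on the strand of the gene. They cover chr12:57546112-57546361 (minus strand) for Foxa1, chr2:148046970-148047219 (minus strand) for the most upstream of 3 annotated starts of Foxa2, and chr3:34649745-34649994 (plus strand) for Sox2. Capitals mark the forkhead core TGTTTAC and the CCAAT box, each searched on both strands, with no overlap between matches.
Foxa1: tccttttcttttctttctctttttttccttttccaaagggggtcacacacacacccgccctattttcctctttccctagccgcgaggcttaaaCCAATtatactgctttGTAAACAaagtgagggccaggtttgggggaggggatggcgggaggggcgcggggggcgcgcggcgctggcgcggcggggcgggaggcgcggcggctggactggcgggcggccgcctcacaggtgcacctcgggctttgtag
Foxa2: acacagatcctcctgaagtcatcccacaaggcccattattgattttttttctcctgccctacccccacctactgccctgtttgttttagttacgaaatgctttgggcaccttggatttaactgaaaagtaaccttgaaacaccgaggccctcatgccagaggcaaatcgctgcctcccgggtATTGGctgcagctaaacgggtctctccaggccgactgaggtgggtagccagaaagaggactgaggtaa
Sox2: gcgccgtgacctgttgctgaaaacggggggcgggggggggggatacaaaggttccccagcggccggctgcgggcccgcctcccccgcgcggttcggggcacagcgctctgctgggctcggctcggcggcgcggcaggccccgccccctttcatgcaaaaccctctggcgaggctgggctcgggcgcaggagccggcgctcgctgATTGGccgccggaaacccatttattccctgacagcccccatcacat

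The Foxa1 window held 1 forkhead core, on the other strand, which starts 141 bases before the gene. Of 32851 windows of the same length in the table, 3.17% held this core. None of the 3 Foxa2 windows, the Sox2 window or the Pax1 window (chr2:147364744-147364993, plus strand) held it. The CCAAT box stood 157 bases before the start of Foxa1, 68 before that of Foxa2 and 46 before that of Sox2, and Pax1 had it 63 and 52 bases before its start. It was found in 33.8% of all windows. The SOX core CATTGT (10.7% of windows) was not found in any window of these 4 genes by letters on both strands, and TATAAA (12.4%) was found only before another start of Foxa2. These matches are descriptions of letters and do not show binding. Foxe1 has no window in the table.

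The signal of Foxe1 rests on a probe that is brighter than the other probe of the gene, so its sequence is also shown. The brighter probe starts at base 244 of its transcript according to the array file and lies at chr4:46357310-46357369 (plus strand, mm9).
Foxe1 probe: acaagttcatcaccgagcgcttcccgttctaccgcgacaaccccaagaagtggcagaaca
The dimmer Foxe1 probe lies 1868 bases further along, at chr4:46359178-46359237. The Foxa1 probe lies at chr12:58641764-58641823 and the Foxa2 probe at chr2:147868669-147868728, both on the minus strand. The Sox2 probe lies at chr3:34551260-34551316, and the Pax1 probes lie at chr2:147200673-147200732 and chr2:147218928-147218987, all on the plus strand. These positions are those of the files (mm9), and the array file places the Foxa1, Foxa2, Sox2 and brighter Pax1 probes at bases 2982, 2022, 2333 and 2526 of their transcripts. Which of them lie in coding or untranslated sequence was not determined here.

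Signals are the processed intensity of the scanner files. For differences, log2 signals were taken relative to the 75th percentile of each array, which ranged from a signal of 422 (MMA) to 507 (LMA). A difference of 1 is 2-fold. Between 57.0% and 62.9% of the spots on an array were well above background and 0 were saturated. Where a probe failed to stand well above background in 1 tissue of a pair, its value was raised to the lowest well-above-background signal of that array, which lay between 20.1 and 26.7, and the difference is a bound. Without replicates, a difference could be set only against array error, taken as the 95% limit of the combined log2 error that the scanner software gives for both signals. Repeated spots of 271 probes differed between arrays with an SD between 0.0457 and 0.0557. Neither error covers differences between pools.

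LLS and LMA were dissected at the same stage and were set side by side to ask which genes mark the tongue-forming outgrowths. Foxa1, Foxa2, Foxe1 and Sox2 were all higher in LLS than in LMA, and Pax1 was lower. With 1 probe per gene, 4 of the 5 members passed 2-fold upwards in LLS minus LMA and 1 downwards, against a background of 3.58% higher and 2.88% lower among 17560 genes. This contrast was in view when the members were chosen, so nothing is read from the count. In these bulk samples, fewer cells of a type and less RNA per cell cannot be told apart.

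Foxa1 gave signals of 269 (MMA), 3063 (LLS), 59.9 (LMA) and 5188 (T). T and LLS were high, MMA was intermediate and LMA was low. The signal errors were 306 for LLS and 7.48 for LMA. Foxa1 was 56.9-fold higher in LLS than in LMA (log2 difference 5.83, array error limit 0.45) and 10.6-fold higher in LLS than in MMA (3.40, limit 0.40). It was 5.39-fold lower in LMA than in MMA (-2.43, limit 0.46). T exceeded LLS by 1.57-fold (0.65, limit 0.40), the smallest step in the order of its levels, and MMA by 16.6-fold (4.05). All neighbours in the order T, LLS, MMA and LMA differed by more than array error.

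Foxa2 gave signals of 924 (MMA), 3048 (LLS), 15.2 (LMA) and 8777 (T). The value in LMA was not well above background. The order of tissues was that of Foxa1, with neighbours again apart by more than array error. Foxa2 was at least 169-fold higher in LLS than in LMA (log2 difference at least 7.40) and at least 55.2-fold lower in LMA than in MMA. It was 3.05-fold higher in LLS than in MMA (1.61, limit 0.40), 2.68-fold higher in T than in LLS (1.42) and 8.17-fold higher in T than in MMA (3.03).

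Foxa1 and Foxa2 differed in the sizes of these steps. In LLS minus MMA the difference of Foxa1 was larger than that of Foxa2 by 1.79 on the log2 scale, beyond the array error of this gap (limit 0.57). In T minus LLS the Foxa1 difference was the smaller one, with a gap of -0.77 (limit 0.55). Over the whole span, T against MMA, Foxa1 led by 1.02 (limit 0.57). Foxa3, the remaining Foxa gene and one of liver and gut, gave 4.91, 4.65, 4.31 and 5.88 in MMA, LLS, LMA and T and was not well above background on any array.

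Foxe1 gave signals of 135 (MMA), 221 (LLS), 22.3 (LMA) and 93.7 (T) with its brighter probe. Unlike the other forkhead members it was highest in LLS, and T lay below MMA. LLS was 11.0-fold higher than LMA (log2 difference 3.46, limit 0.66) and 1.51-fold higher than MMA (0.60, limit 0.42). LMA was 7.29-fold lower than MMA (-2.87). T was 2.54-fold lower than LLS (-1.35, limit 0.44) and 1.68-fold lower than MMA (-0.75, limit 0.44), and neighbours in the order LLS, MMA, T and LMA differed by more than array error. The dimmer probe gave 27.7, 31.3, 5.69 and 20.2 in MMA, LLS, LMA and T, the last 2 not well above background. Its LLS minus LMA difference was at least 0.79 and its T minus LLS difference was -0.34 or lower (limits 2.29 and 1.04). As minimum sizes, these bounds cannot be placed within array error. Without the raised values the differences were 2.61 and -0.74, and the order of tissues was that of the brighter probe. With the dimmer probe, however, no neighbours in this order were apart by more than array error. LLS minus MMA was 0.06 (limit 0.78), and without the raised value T minus MMA was -0.67 (limit 1.08). The order is therefore not set by the dimmer probe. With the median of both probes, which takes in these bounds, Foxe1 was at 2.13 for LLS minus LMA and -0.84 for T minus LLS.

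Sox2 gave signals of 633 (MMA), 1055 (LLS), 64.9 (LMA) and 2013 (T). LMA stood far below the other tissues, and T was highest. LLS was 18.1-fold higher than LMA (log2 difference 4.18, limit 0.44), and LMA was 11.7-fold lower than MMA (-3.55, limit 0.44). LLS exceeded MMA by 1.54-fold (0.63, limit 0.40), and T exceeded LLS by 1.77-fold (0.83, limit 0.40) and MMA by 2.74-fold (1.45). The order T, LLS, MMA and LMA was again that of the Foxa genes. Beside Foxe1, the LLS minus LMA gap was -0.72 (Foxe1 minus Sox2, limit 0.79) and the LLS minus MMA gap was -0.03 (limit 0.57), both within array error.

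Pax1 gave signals of 77.4 (MMA), 19.7 (LLS), 149 (LMA) and 248 (T) with its brighter probe. The value in LLS was not well above background, so the tissue in which the other members were high had the lowest Pax1 signal. Pax1 was at least 6.28-fold lower in LLS than in LMA, a bound of -2.65, and at least 3.92-fold lower in LLS than in MMA. LMA exceeded MMA by 1.60-fold (log2 difference 0.68, limit 0.45). T exceeded LLS by at least 10.8-fold (bound 3.43) and MMA by 2.75-fold (1.46, limit 0.44). The other Pax1 probe gave 6.26, 5.05, 10.5 and 23.0 in MMA, LLS, LMA and T and was below background in every tissue, so the Pax1 values rest on 1 probe. By these values Pax1 did not follow the epithelial members.

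**Figure D1:**
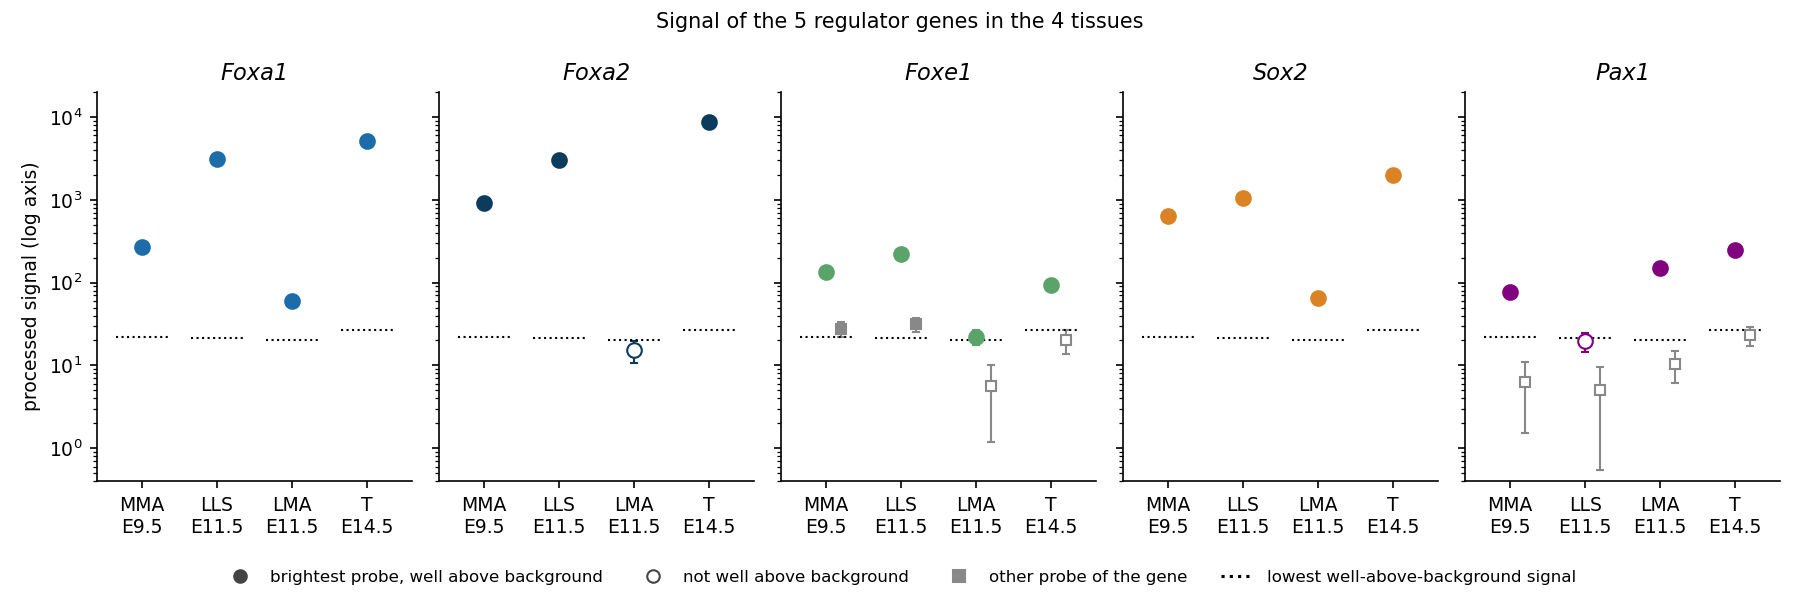
Processed signal (log axis) of Foxa1, Foxa2, Foxe1, Sox2 and Pax1 in MMA, LLS, LMA and T. Circles are the brightest probe of each gene and squares the other probe, filled where well above background and open where not, bars are the signal error of the scanner software (smaller than most symbols), and dotted lines the lowest well-above-background signal of each array. LMA is the lowest tissue for all members but Pax1, whose lowest is LLS.

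Another background correction, normexp, moved the sizes of many differences, among them those that rest on a dim value. It also adds an offset of 50 to the signals, which by itself shrinks differences of dim values. The parts of the subtraction and of the offset were not tested apart. With normexp correction of the mean signals in place of the processed signal, LLS minus LMA was 4.72 for Foxa1, 5.42 for Foxa2, 1.91 for Foxe1, 3.26 for Sox2 and -1.12 for Pax1. The directions were unchanged for these 5 values. With the same correction, LMA minus MMA was -1.59 for Foxa1, -3.88 for Foxa2, -1.48 for Foxe1 and -2.68 for Sox2. For Pax1 the correction gave -0.80 in LLS minus MMA and 1.73 in T minus LLS. Foxa1 also moved where no value was near background, to 3.13 in LLS minus MMA and 3.77 in T minus MMA.

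LLS and MMA differ in both stage and dissected tissue. Of the 5 members, Foxa1 and Foxa2 (2) passed 2-fold upwards and Pax1 (1) downwards, against 9.64% and 5.59% of 16948 genes. For LMA minus MMA, 0 members passed 2-fold upwards and 4 downwards, against 10.5% and 7.16% of 17559 genes. These comparisons share the MMA array, and LLS and LMA enter 1 each, so the LMA levels of the members enter both this comparison and LLS minus LMA. T and LLS, the older and younger lingual tissues, differed at least 2-fold for Foxa2 and Pax1 (2 higher, background 12.6% of 17517 genes) and for Foxe1 (1 lower, background 6.03%). T and MMA span the whole series. All members but Foxe1 (4 of 5) passed 2-fold upwards and 0 downwards, against 18.0% and 13.8% of 17426 genes. With normexp correction 3 passed upwards, as Pax1 was at 0.93.

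The tissues differ in how much epithelial signal they hold. A list of 24 pan-epithelial genes, among them those for E-cadherin, the simple keratins, claudins and the splicing factors Esrp1 and Esrp2, summed to a signal of 63418 (MMA), 31989 (LLS), 7658 (LMA) and 52037 (T). The sums are led by a few bright probes, since Krt18 gave 37581 of the MMA sum and Krt8 13403, and their order among MMA, LLS and T is not that of the list's medians. The lowest sum was in LMA, the tissue where the 4 epithelial members were lowest. In LLS minus LMA, 21 of 23 pan-epithelial genes passed 2-fold upwards and 0 downwards, with a median difference of 2.09 and a range of 0.31 to 3.38. The median of all genes was 0.01. Foxa1, Foxa2 and Sox2 each had a larger LLS minus LMA difference than any of the 23, under every alternative processing tried as well. With normexp correction the Sox2 lead (3.26, against 3.20 for the highest) was smaller than its array error limit of 0.44. With the processed signal of its brighter probe, Foxe1 (3.46) also exceeded all 23. Its lead over the highest, Krt8 (3.38), was smaller than its array error. Relative to the list's median, Foxa1 was higher by 3.74, Sox2 by 2.09 and Foxe1 by 1.37, while the Foxa2 bound was higher by 5.31. With normexp correction, Foxe1 at 1.91 exceeded 16 of 23 pan-epithelial genes (median 1.75). With the median of both probes, which takes in the bound of the dimmer probe, Foxe1 was at 2.13 and exceeded 13 of 23.

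The other comparisons set the members beside the same list. In LMA minus MMA, 20 of 23 pan-epithelial genes were at least 2-fold lower (median -2.51). Relative to that median, Foxa1 stood at 0.08, Foxe1 at -0.36 and Sox2 at -1.04, and the Foxa2 bound was below all 23. In LLS minus MMA the list's median was -0.23, with 4 genes higher and 4 lower of 23, while Foxa1 exceeded all 23 and Foxa2 22 of them. In T minus LLS the median was 0.51, and Foxe1 stood at -1.86 relative to it, above only 1 of 24 pan-epithelial genes. In T minus MMA the median was 0.29, and Foxa1 and Foxa2 each exceeded 22 of 24. The part of epithelial content in the differences of the members was not tested.

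**Figure D2:**
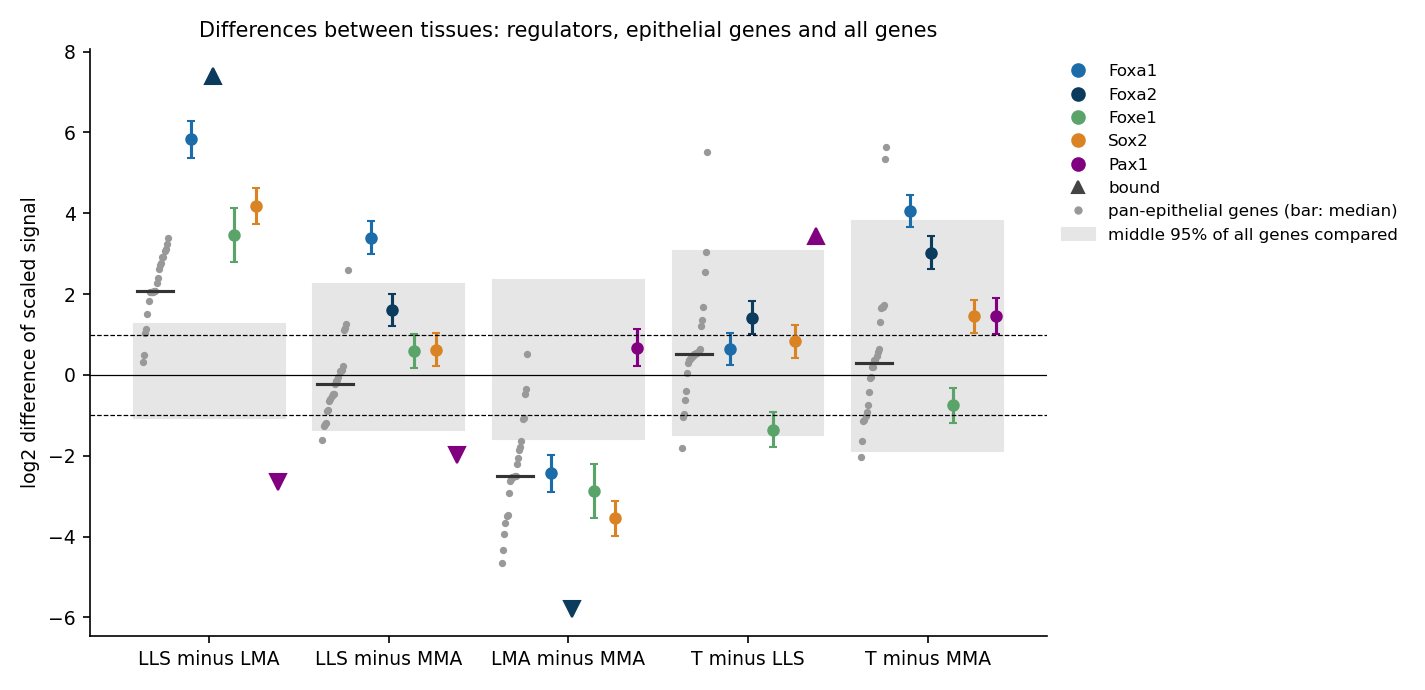
Log2 differences of scaled signal in 5 comparisons between tissues. Coloured circles are members measured in both tissues with bars of the 95% limit of the combined array error, triangles are bounds, grey dots are pan-epithelial genes with a bar at their median, the grey band holds the middle 95% of all genes compared and dashed lines mark 2-fold. In LLS minus LMA, Foxa1, Foxa2 and Sox2 lie above every grey dot, Foxe1 lies at their upper edge and Pax1 lies below the band.

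Genes of stratified and ectodermal epithelium gave a further view of the surface tissue. In LLS minus LMA, 11 of 16 passed 2-fold upwards and 0 downwards, with a median of 1.65. The basal keratin gene Krt5 (1964 in LLS, 1733 in LMA, log2 difference 0.33) and Krt14 (1967 in LLS, 1549 in LMA, 0.50) were among those within 2-fold. Trp63, the master factor of stratified epithelium, gave 3662 in LLS and 3471 in LMA with its brightest probe, a difference of 0.23. Its 3 other probes differed by 2.56, 2.56 and 2.30, so the size of the Trp63 difference depends on the probe. In T minus LLS, 9 of 17 such genes were higher and 1 lower (median 1.34), with Krt5 at 5.34. Sox2, at 0.83 in that comparison, and Foxa1, at 0.65, stayed within 2-fold.

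Known partners and targets of the Foxa genes were mostly dim. A list of 20 genes known as Foxa targets or partners in endoderm-derived epithelia had 8 that could be compared between LLS and LMA, of which 3 were higher and 0 lower (median 0.18). These were Shh, the Hedgehog ligand, Cdh1, which encodes E-cadherin, and Cftr, a chloride channel gene. Cftr gave 152 in LLS, against 13.7 in LMA, which was not well above background (bound 3.07), and its 2 other probes were below background on all arrays. Agr2, a gene of mucous secretory cells, gave 422 in T, against 8.78 in LLS, a bound of 4.20. The lung surfactant genes Sftpa1, Sftpb and Sftpc, the trefoil genes Tff1, Tff2 and Tff3 and the lung and thyroid factor Nkx2-1 were not well above background on any array.

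Shh followed the Foxa genes in some comparisons and not in others. Its signals were 505 (MMA), 2275 (LLS), 26.9 (LMA) and 862 (T), highest in LLS and lowest in LMA. In LLS minus LMA the gap of Foxa1 minus Shh (-0.72, limit 0.76) was within array error. That of Foxa2 minus Shh was at least 0.85, a minimum that cannot be placed within its limit of 1.07. In LLS minus MMA the gap was within array error for Foxa2 (-0.45, limit 0.57) and beyond it for Foxa1 (1.34, limit 0.57). In LMA minus MMA both were beyond it, with gaps of 2.06 for Foxa1 (limit 0.76) and -1.30 for the Foxa2 bound (limit 1.07). In T minus LLS, Shh was lower (-1.51) while both Foxa genes were higher, with gaps of 2.16 for Foxa1 and 2.93 for Foxa2 (limit 0.57 each).

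The paralog Pax9, a factor of pharyngeal pouches, teeth and palate, ran opposite to Pax1 at E11.5. Pax9 gave signals of 44.0 (MMA), 527 (LLS), 86.6 (LMA) and 3520 (T). In LLS minus LMA it was 2.76 higher, whereas Pax1 was at least 2.65 lower, a gap of -5.41 (limit 0.90). In LMA minus MMA the pair differed by -0.03 (limit 0.71), within array error. In T minus LLS, where the Pax1 value is a bound, the gap was at least 0.80. This minimum cannot be placed within its limit of 0.88. The other Pax9 probe was above background only in T, with a signal of 119.

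Genes linked to Pax1 in sclerotome and cartilage were mixed in LLS minus LMA, where 8 of 14 passed 2-fold upwards and 1 downwards (median 1.06), the lower one being the somite homeobox gene Meox1 (-1.17). Mkx (-0.48), Sox5 (-0.42) and Uncx (0.01) were among those within 2-fold. Meox2, the relative of Meox1, was 2.16 higher. Pharyngeal endoderm and pouch regulators had 2 of 17 genes higher, Nkx2-3 and Pax9, and 3 lower (median -0.19). The lower ones were Gata3 (-1.59), Fgf15 (-1.40) and Hoxa3 (-1.12). Eya1 was within 2-fold with its brightest probe (0.01), but its other probes gave -1.48 and -1.68, so the count of lower genes depends on the probe. Of the thyroid list, 0 of 6 genes compared were higher or lower by 2-fold in LLS minus LMA (median 0.09). Tshr, which encodes the receptor for thyrotropin, and Slc5a5, which encodes the iodide transporter, were below background on all arrays. Hhex, Duox2, Glis3 and Bcl2 of the same list were above it on all 4 arrays, Hhex with 65.1 (MMA), 63.6 (LLS), 110 (LMA) and 180 (T). Tg, the thyroglobulin gene, gave 85.3 in T, against 31.0 in LLS, and its other probe gave 328 in T and was below background elsewhere.

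**Figure D3:**
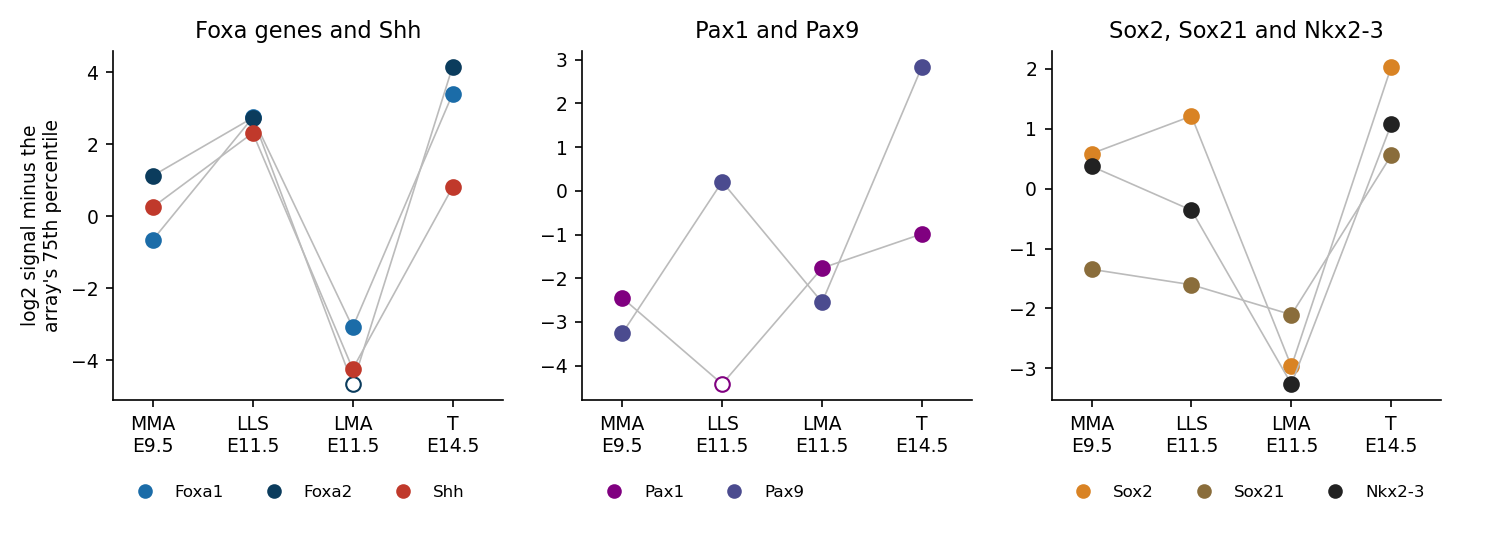
Log2 signal minus the 75th percentile of each array in MMA, LLS, LMA and T for Foxa1, Foxa2 and Shh (left), Pax1 and Pax9 (middle) and Sox2, Sox21 and Nkx2-3 (right). Open circles are values not well above background, drawn at the lowest well-above-background signal of the array, and heights are to be compared between tissues for 1 gene and not between genes. Pax1 and Pax9 move in opposite directions between LLS and LMA, where Sox21 differs by 0.50 and Sox2 by 4.18.

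Few other Sox genes differed by 2-fold in LLS minus LMA. Of 18 other Sox genes, 15 could be compared, 0 passed 2-fold upwards and 1 downwards, with a median of 0.12. The 3 highest were Sox9 (0.56), Sox21 (0.50) and Sox6 (0.39), and the 3 lowest were Sox8 (-2.22), Sox18 (-0.85) and Sox5 (-0.42). The direction for Sox5 depends on the probe, as another of its probes gave 0.43. Sox21, the SoxB gene that like Sox2 is known from taste and oral epithelium, gave 166 (MMA), 150 (LLS), 118 (LMA) and 722 (T). Its LLS minus LMA difference was smaller than that of Sox2 by 3.68 (limit 0.61), while in T minus MMA the gap was -0.46 (limit 0.57). Sox3 and Sox14, also SoxB genes, were not well above background in any tissue.

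Other forkhead genes showed LLS minus LMA differences too. Of 41 other Fox genes, 28 could be compared, with 7 past 2-fold upwards, 1 downwards and a median of 0.11. The 3 highest were Foxl1 (bound 3.78), Foxd1 (3.28) and Foxf2 (2.56), which are known from mesenchyme, and the 3 lowest were Foxp2 (-1.36), Foxs1 (-0.59) and Foxj2 (-0.36). In T minus LLS the pattern of these mesenchymal genes differed from that of the Foxa genes, with Foxl1 at -3.33 (bound), Foxd1 at -2.63 and Foxf2 at -2.23. Another Foxp2 probe gave -0.26 as a bound. Of 8 other Pax genes, 5 could be compared in LLS minus LMA, and Pax9 was the only 1 at least 2-fold higher. Those next highest were Pax5 (0.39) and Pax2 (0.19), and the others were Pax3 (-0.28) and Pax7 (-0.79).

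Genes with the nearest pattern to each member were found by the Euclidean distance between log2 signals centred over the 4 tissues, among genes well above background on the same arrays. The points share 4 arrays, and no chance level is given. The nearest gene to Foxa1 was Eppk1, which encodes the epithelial cytolinker epiplakin, at a distance of 1.24 among 12956 genes. Eppk1 gave 91.6 (MMA), 412 (LLS), 23.1 (LMA) and 1859 (T). It was followed by the annexin gene Anxa8 (1.56), Mal2 (1.79), Trim29 (1.82) and Upk3bl (1.85). Foxa1 had the larger LLS minus LMA difference (5.83, against 4.31 for Eppk1).

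Foxe1 lay closest to the tight junction gene Cldn7, at a distance of 0.36, the smallest of all members. Cldn7 gave 1496 (MMA), 1762 (LLS), 236 (LMA) and 927 (T). Its other probe was below background on all arrays. Next came Dpysl5 (0.88), the claudin gene Cldn6 (0.93), Dennd1c (0.95) and Nell2 (0.97). Cldn6 and Cldn7 belong to the pan-epithelial list.

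The nearest genes to Sox2 were Tmprss13 (0.80), which encodes a membrane serine protease, Tnk1 (1.01), the pharyngeal homeobox gene Nkx2-3 (1.10), the claudin gene Cldn8 (1.12) and Ripk4 (1.18), a kinase gene of epidermal differentiation. Nkx2-3 gave 546 (MMA), 355 (LLS), 52.9 (LMA) and 1034 (T). In LLS minus MMA its difference was -0.73, while that of Sox2 was 0.63, a gap of 1.36 (limit 0.57). For Foxa2 and Pax1 the field was small, since few genes were below background in the same single tissue. Among 58 genes below background only in LMA, Fgfbp1 (2.55), the retinoic acid degrading enzyme gene Cyp26a1 (2.89), Rab25 (3.58), Galnt3 (3.66) and Ly6g6e (4.06) were nearest to Foxa2. Among 90 genes below background only in LLS, Rgs7bp (0.81), the vesicular acetylcholine transporter gene Slc18a3 (1.11), Cadps2 (1.11), Kcnj12 (1.38) and Marchf11 (1.39) were nearest to Pax1. Several of these are known from neurons or muscle. The other probes of Rgs7bp and Cadps2 were below background in MMA, LLS and LMA. In LLS minus LMA another Marchf11 probe gave a bound of -0.02 and another Kcnj12 probe a bound of -0.96.

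**Figure D4:**
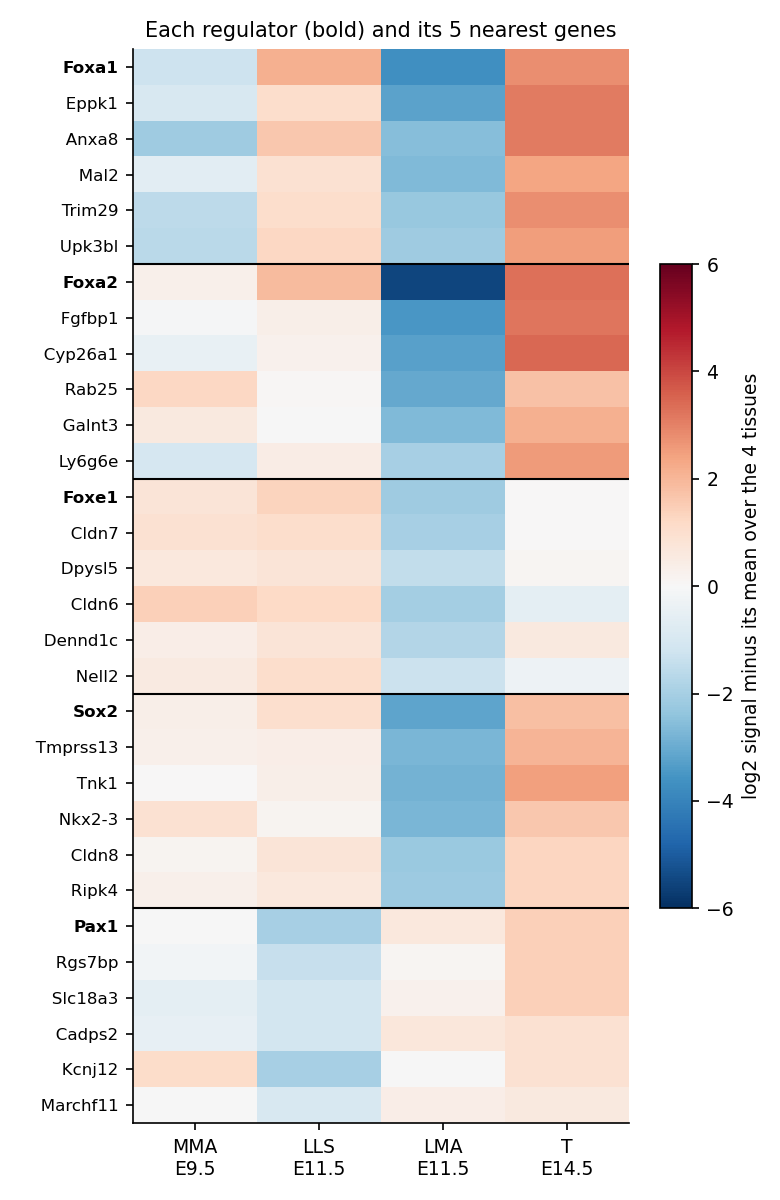
Log2 signal of each member (bold) and its 5 nearest genes, minus the mean over the 4 tissues, by colour from low (blue) to high (red) in MMA, LLS, LMA and T. Foxa1, Foxa2, Sox2 and their neighbours are lowest in LMA and highest in T, Foxe1 with Cldn7 is highest in LLS, and Pax1 with its neighbours is lowest in LLS. Neighbours were chosen for nearness to the member, so their likeness to it follows from the choice.

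Foxa2, Sox2 and Pax1 are also known from tissues outside the mouth, so markers of these were read beside them. Of 10 markers of notochord and floor plate, where Foxa2 is active, 5 or 6 were well above background on each array. The brachyury gene and Noto were not so on any array. The summed signal of this list was 669 (MMA), 2634 (LLS), 360 (LMA) and 2978 (T). Shh gave 505 (MMA), 2275 (LLS), 26.9 (LMA) and 862 (T) of these sums. The part of such tissue in the Foxa2 differences was not tested. Of 15 neural tube and neuron markers, where Sox2 is active, Sox3, Pax6, Neurog2 and Neurod1 were below background on all arrays, and 7 to 11 markers were above it on each array. Their summed signal was 4060 (MMA), 6637 (LLS), 8207 (LMA) and 11527 (T), highest in T and lowest in MMA. Snap25 gave 3210 (MMA), 4139 (LLS), 5410 (LMA) and 4690 (T) of these sums. Their part in the Sox2 differences was not tested. The extraction text of the labels names cerebellum. The cerebellum markers Atoh1, En1 and Gabra6 were not well above background on any array. Of 14 such markers 5 to 7 were above it, with sums from 637 in MMA to 2107 in LMA. Pcp2, a gene of Purkinje cells, gave 46.7 (MMA), 584 (LLS), 1560 (LMA) and 43.2 (T), and Barhl1 gave 266 (MMA), 209 (LLS), 211 (LMA) and 269 (T). The part of such tissue in the differences of the members was not tested. The markers of muscle, a tissue not named for Pax1 above, summed to 602 (MMA), 3998 (LLS), 12976 (LMA) and 254107 (T). T and LMA were highest as for Pax1, but MMA was below LLS. This order is not particular to muscle. The neuron markers had it too, as did the macrophage markers with 4402 (MMA), 5223 (LLS), 6668 (LMA) and 9963 (T). The part of any of these tissues in the Pax1 differences was not tested.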

How the data were processed

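RNA of 4 pooled tissues was hybridised to 1 Cy3 array each, 1 slide in all. The authors deposited scanner files whose intensity values came from Agilent Feature Extraction, version 10.7.1.1 per the file headers and 9.5.1.1 per the submitters' processing notes, with background subtraction and no scaling between arrays. Per the labels, RNA was prepared with TRIzol and a Promega kit. The value table deposited with the series, another set of intensity values, served as an alternative.

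Control spots and spots with outlier flags were left out, repeated spots averaged, and probes named through RefSeq accessions or symbols (10737 of 56601 had none). For each gene the probe with the highest mean log2 signal over the arrays was used, and other probes are given for the members and for some further genes. Processed signals were scaled as log2 minus the 75th percentile of each array. A gene was compared where well above background in at least 1 tissue of a pair. With 1 array per tissue there was no test, p-value or SD, and the number of arrays limits precision. The counting was tested on simulated data. Alternatives were quantile and cyclic loess normalization, no scaling, normexp (offset 50), no filter, the median of all probes, and a 4-fold threshold.

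The members and gene lists were chosen with earlier results of these data known. Named genes were the members with every probe, the 5 nearest genes of each (without clone and gene-model names), the 3 highest and 3 lowest other Fox, Sox and Pax genes in LLS minus LMA, and any gene of the lists. Work used Python 3.11.15, numpy 2.4.6, pandas 2.3.3, R 4.3.3 and limma 3.58.1.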

Additional observations from a re-analysis of the deposited data

How the results depend on the processing

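Over 7 alternatives, no difference of a member changed sign in any of the 5 comparisons. Quantile normalization, no filter and the deposited value table left all 25 differences within 1 combined error of those reported, whereas normexp correction moved 16 beyond it, no scaling 6, the median of all probes 5 and cyclic loess 3. The cause was not tested. The LLS minus LMA counts of 4 higher and 1 lower were the same under every alternative, and so was the count of 4 lower in LMA minus MMA. With normexp correction, 0 members were at least 2-fold lower in LLS minus MMA and 0 in T minus LLS. The T minus LLS count was also 0 with the median of all probes (Foxe1, -0.84, which takes in a bound of its dimmer probe). In T minus MMA the correction left 3 members higher instead of 4 (Pax1, 0.93). At 4-fold, 1 member was higher and 0 lower in LLS minus MMA, 1 higher and 0 lower in T minus LLS, and 2 higher in T minus MMA.

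Counts over all genes (higher and lower) fell with normexp correction to 360 and 206 in LLS minus LMA, 972 and 546 in LLS minus MMA, 1117 and 749 in LMA minus MMA, and 1405 and 599 in T minus LLS. Without filter and floor, which lets dim values in, they were 1466 and 1791, 2788 and 2029, 3284 and 2237, and 3443 and 2001 in the same 4 comparisons. At 4-fold they were 186 and 73, 545 and 148, 623 and 258, and 949 and 189, and 1547 and 374 in T minus MMA. Without scaling, 718 genes were lower in LMA minus MMA and 1580 in T minus MMA, and with cyclic loess 1432 in T minus MMA. The median of all genes, 0.01, -0.06, -0.09, -0.08 and -0.10 in LLS minus LMA, LLS minus MMA, LMA minus MMA, T minus LLS and T minus MMA, became -0.15, 0.05, 0.18, 0.03 and 0.12 without scaling, and 0.18 in T minus MMA with cyclic loess.

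No paired analysis was possible because each tissue had 1 array and the labels give no replicate numbers. Differences that rest on values near background, such as those of Foxe1 and Foxa2 in LMA and Pax1 in LLS, moved in size with normexp correction and its offset.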

Other observations

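Genes of taste placodes and papillae, the structures where Sox2 and Foxa2 are known to be active in the tongue, were compared in addition. In T minus MMA, 11 of 20 were at least 2-fold higher and 3 lower (median 1.05). Among the lower ones was Six4 (-1.79), with 2134 in MMA and 717 in T. Nkx2-2, a homeobox gene, gave 324 in T, against 5.03 in MMA, which was not well above background (bound 3.65), and Lgr6, a stem cell receptor gene, gave 492 in T, against 11.9 in MMA, also below background (bound 4.25). In LLS minus LMA, 4 of 19 were higher and 2 lower (median -0.34). Of oral and lingual epithelial signals, 4 of 20 were higher and 2 lower in LLS minus LMA (median 0.38). Wnt7a gave 13.6 in LLS, not well above background, against 154 in LMA (bound -2.70), the reverse of Shh. In the list of stem cell and SoxB genes linked to Sox2, 1 of 12 was higher in LLS than in LMA and 0 lower (median 0.09), the higher one being Klf4 (1456 in LLS, 719 in LMA).

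Of 10 Schwann cell and melanoblast markers, 1 of the 9 compared was at least 2-fold higher in LLS than in LMA and 0 lower (median 0.17). Of 12 endothelial markers, 0 were higher and 5 lower (median -0.90). The salivary gland markers had 0 higher and 0 lower of 3 compared (median 0.09), the macrophage markers 0 and 0 of 12 (median -0.16), and the primitive erythroid markers 0 and 0 of 6 (median -0.05).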
